A study of Mus musculus with 56 samples.

Results

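The 9 genes described here mark B and T lymphocytes, and they were followed in the lung, liver and forestomach of mice given chrysene, a polycyclic aromatic hydrocarbon. They are Cd79a, Cd79b, Ms4a1 and Cd22 for B cells and Cd3e, Cd3g, Cd8a, Cd4 and Lck for T cells. All 9 had a probe on the array, 11 probes in all of 55681, among 20018 genes that could be named. In each tissue 1 probe per gene was used, the one with the highest mean signal. All animals were adult male MutaMouse, a transgenic strain carrying a bacterial reporter for scoring mutations, aged about 14 weeks. Gavage was daily over 28 days. D0 mice received the olive oil vehicle, and the chrysene dose was 17.5 mg/kg/day in D1, 50 mg/kg/day in D2 and 150 mg/kg/day in D3. Lung (right lobe), liver (left lobe) and forestomach were collected 72 hours later, and RNA came from random sections of each, so that every array mixes the cell types of its section. Lung had 5, 5, 3 and 5 mice in D0 to D3, and liver and forestomach had 5, 5, 4 and 5 each, for 56 arrays. Each array carried the RNA of 1 tissue of 1 mouse in Cy5 and a universal reference RNA, pooled from 11 mouse cell lines, in Cy3. A value below is the log2 ratio of Cy5 over Cy3, scaled within each array (LOWESS) without background subtraction. A difference of 1 between arrays is a doubling of that scaled ratio. For dim spots, or between arrays of unlike signal, it need not be a doubling of the transcript. Nor need 0 mean the level in the reference.

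B cells detect antigen with a membrane immunoglobulin that signals through a pair of small chains, CD79A and CD79B, whose tails carry the activation motifs. MS4A1 (CD20) is a membrane protein of mature B cells, and CD22 is an inhibitory co-receptor that binds sialic acid. T cells signal through the CD3 chains, among them CD3E and CD3G. CD4 and CD8A are the co-receptors that divide helper from cytotoxic T cells, and LCK is the kinase that both co-receptors bring to the receptor. In a whole tissue the level of these transcripts follows the lymphocytes in it, resident, in follicles or in blood, and fewer cells of a type cannot be told apart from less RNA per cell.

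The genes lie on 6 of the mouse autosomes in GRCm38.p6. Cd79a (chr7:24897497-24901858) and Cd22 (chr7:30865404-30880342) share chromosome 7. Cd3g (chr9:44969572-44980431) and Cd3e (chr9:44998735-45009663) lie close together on chromosome 9. Cd8a (chr6:71373427-71379171) and Cd4 (chr6:124864693-124888247) are both on chromosome 6, far apart. Lck spans chr4:129548344-129573641, Cd79b chr11:106311341-106314562 and Ms4a1 chr19:11249679-11266149.

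To show the genes at their start sites by role, the windows of 4 of them are given, one each for the B cell receptor, the B cell co-receptor, CD3 and the kinase. The windows run from 250 bases before the start site to 50 after it, 5′ to 3′ along the gene, and come from RefSeq on GRCm38.p6, which gave 7 windows for 6 of the 9 genes. Capitals mark letters of a searched motif on either strand.
Cd79a (chr7:24897247-24897546, plus strand): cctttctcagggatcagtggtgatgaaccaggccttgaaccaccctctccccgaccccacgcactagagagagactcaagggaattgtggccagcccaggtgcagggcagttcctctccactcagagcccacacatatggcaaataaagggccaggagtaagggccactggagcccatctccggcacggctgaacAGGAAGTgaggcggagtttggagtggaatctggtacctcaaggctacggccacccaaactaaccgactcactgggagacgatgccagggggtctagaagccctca
Cd22 (chr7:30878979-30879278, minus strand): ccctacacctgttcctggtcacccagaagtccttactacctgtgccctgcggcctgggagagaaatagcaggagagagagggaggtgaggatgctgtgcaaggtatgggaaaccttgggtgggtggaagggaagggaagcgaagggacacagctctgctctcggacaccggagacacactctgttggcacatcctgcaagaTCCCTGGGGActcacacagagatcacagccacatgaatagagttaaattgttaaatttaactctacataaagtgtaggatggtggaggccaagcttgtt
Cd3e (chr9:45009562-45009861, minus strand): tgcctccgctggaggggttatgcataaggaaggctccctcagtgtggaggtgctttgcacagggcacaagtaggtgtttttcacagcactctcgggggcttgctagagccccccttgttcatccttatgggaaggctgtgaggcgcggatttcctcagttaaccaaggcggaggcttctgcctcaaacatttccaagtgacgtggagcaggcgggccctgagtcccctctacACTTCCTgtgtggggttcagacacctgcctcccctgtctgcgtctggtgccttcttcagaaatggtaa
Lck (chr4:129558323-129558622, minus strand): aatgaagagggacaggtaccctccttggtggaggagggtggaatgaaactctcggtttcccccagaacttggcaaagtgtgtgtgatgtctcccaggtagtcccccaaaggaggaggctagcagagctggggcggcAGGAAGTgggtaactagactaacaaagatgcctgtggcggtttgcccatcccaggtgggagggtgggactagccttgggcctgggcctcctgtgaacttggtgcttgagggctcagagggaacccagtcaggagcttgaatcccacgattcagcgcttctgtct
Searched were the octamer ATTTGCAT, a palindromic EBF1 motif, a RUNX motif TGTGGT and an ETS motif AGGAAGT, the last chosen after the windows had been seen, all on both strands. The ETS letters occur at -55 in Cd79a, at -18 on the opposite strand in Cd3e, at -114 in the printed Lck window and at -10 in the other Lck window (chr4:129573592-129573891). They are in 9.35% of all 32851 windows of this length. The EBF1 letters occur at -49 in Cd22 and in 0.904% of all windows, and the RUNX letters at -58 in the other Lck window and in 16.8%. The octamer, in 1.74% of windows, is in none of the 7. A match is a description of letters and not a binding site.

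Lung arrays had Cy5 well above background at 47.6% to 55.2% of probes, liver arrays at 33.2% to 45.2% and forestomach arrays at 18.1% to 50.2%. In forestomach the share was 18.1% to 33.4% on slides 1 and 2 and 39.0% to 50.2% on slide 3, although each slide held all dose groups. Dose and slide column were nearly confounded, because D0 to D3 filled columns 1 to 4 in that order on 50 of 56 arrays, 16 of them among the 18 lung arrays. The labelled tissues carried their own markers: the mean ratio of 5 alveolar type 2 genes was 5.67 to 6.20 in lung and -0.46 to -0.02 elsewhere, that of 6 hepatocyte genes 6.68 to 7.38 in liver and 0.05 to 3.90 elsewhere, and that of 7 keratinocyte genes 3.8 to 6.14 in forestomach and -0.51 to -0.26 in liver. The lungs of D3 mice 17 and 19 stood apart from the other 16 lungs in markers of other tissues, as given with the results they touch.

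Which tissue holds these transcripts was asked first in the D0 mice. Lung gave the only array set in which all 9 genes were measured. Cy5 was well above background on all 18 lung arrays for 8 of them and on 17 for Cd8a. In liver Cd79a and Cd8a were not well above background on any of 19 arrays. In forestomach Cd79a and Cd8a were again at 0 of 19 arrays, Ms4a1 was well above background on 1, Cd79b on 6, Cd3g on 7, Cd22 on 10, Lck on 13, Cd4 on 18 and Cd3e on 19. The plot of Cy5 signal by tissue shows that most forestomach points of the B cell genes are open, that is, at background.

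**Figure D1:**
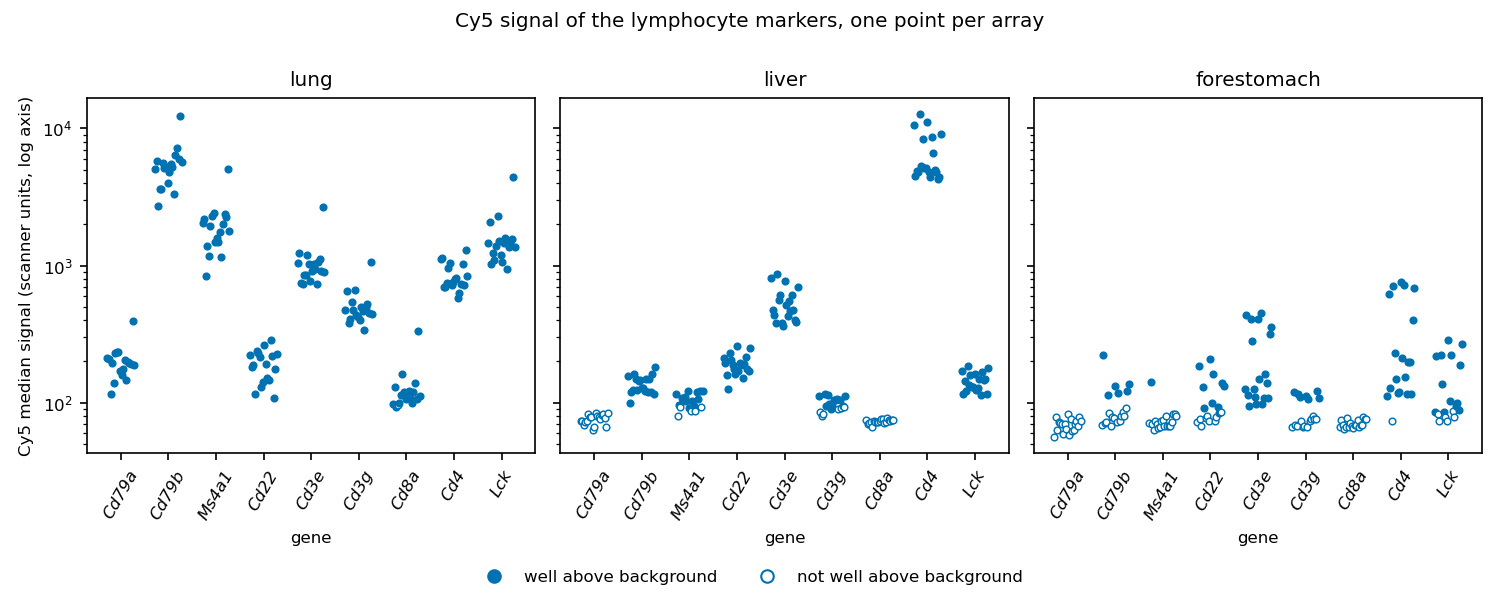
Cy5 median signal in scanner units on a log axis for each gene (x axis) in lung, liver and forestomach, 1 point per array, filled where the spot was well above background and open where it was not. Cd79b averages 5399 in lung, 137 in liver and 97.2 in forestomach, whereas Cd4 averages 851, 6569 and 306. Levels of different genes come from different probes and are not comparable.

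Cd79b, Ms4a1, Lck and Cd3g were higher in the lung of D0 mice than in either other tissue. Cd79b had ratios of 0.79, 0.78, 0.20, 0.65 and 0.55 in the 5 lungs and of -3.46, -3.27, -3.21, -2.97 and -3.53 in the livers of the same mice. The 2 sets do not overlap. The difference was 3.88 ± 0.31 (SE) on the log2 scale, 14.7-fold (limma, adjusted p = 4.96e-16). Ms4a1 ran from -0.46 to 0.47 in lung and from -3.13 to -2.38 in liver, a difference of 2.82 ± 0.33 or 7.06-fold (limma, adjusted p = 1.23e-10). Lck, the kinase, was 2.08 ± 0.25 higher in lung than in liver, or 4.24-fold (limma, adjusted p = 3.1e-10). Cd3g was 1.16 ± 0.24 higher (limma, adjusted p = 2.18e-05), a size that is not read because most D0 livers were at background for it. In liver Ms4a1 was well above background on 3 of the 5 D0 arrays and Cd3g on 2, and in forestomach Ms4a1 was so on 1 of 5, Cd79b and Cd3g on 2 and Lck on 3. Over the alternative settings, lung minus liver ran from 3.79 to 4.93 for Cd79b and from 2.72 to 3.98 for Ms4a1. It ran from 2.01 to 3.24 for Lck and from 1.09 to 2.275 for Cd3g, so the sizes depend on the setting and the direction did not.

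Cd79a and Cd8a could be bounded only, because neither was measured in the livers or forestomachs. Cd79a was at least 2.03-fold higher in lung than in liver and at least 1.94-fold higher than in forestomach. Cd8a was at least 1.26-fold and at least 1.17-fold higher. In the limma fit of the ratios Cd79a was called in both comparisons. Cd8a stayed under the fold limit of 1.5 in both, so it was not called. Both genes entered that fit only through their lung signal, so its p-values are not read for them. Over the alternatives the fitted log2 difference of Cd8a fell to 0.28 and 0.14. That of Cd79a against forestomach fell to 0.62. The bounds therefore hold for the main setting only. These bounds come from Cy5 after loess and Aquantile scaling, with the dimmest probes that were well above background as the floor, and are open to dye bias since no dyes were swapped.

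The T cell genes did not all follow that order. Cd3e was higher in liver, with ratios of -1.08, -0.85, -1.14, -1.22 and -1.01 in the D0 lungs and -0.32, 0.00, -0.35, -0.38 and -0.34 in the livers. Lung minus liver was -0.78 ± 0.22 (limma, adjusted p = 0.00142). The direction of this ratio depends on the scaling, because centring each array on its median without loess gave 0.44. The Cy5 signal of Cd3e averaged 1038 in lung and 536 in liver over all arrays, the opposite order. The 95th percentile of Cy5 over all probes was 4386 to 7657 on lung arrays and 2226 to 5092 on liver arrays. Cd4 had the smallest p of the 9, though Cd79b and Ms4a1 differed by more, with 0.21, 0.35, 0.19, 0.39 and 0.27 in lung and 2.85, 2.60, 2.58, 2.70 and 2.72 in liver, which is 2.41 ± 0.09 lower in lung (limma, -2.41, adjusted p = 1.89e-28). This probe was also brighter in the reference channel on liver arrays, with a mean Cy3 of 2506 against 521 on lung arrays, although the same reference pool was used on every array. A second Cd4 probe, printed on 10 spots, gave 0 arrays well above background in the 3 tissues. The probe used here was well above background on 18 of 18 lung, 19 of 19 liver and 18 of 19 forestomach arrays. The 2 probes of Cd4 thus disagree in every tissue and all Cd4 values rest on 1 of them. Whether that probe measures Cd4 alone in liver was not tested, so the Cd4 differences between tissues are those of this probe. Cd22 did not pass the test between lung and liver (-0.19 ± 0.10, limma, adjusted p = 0.0827), and centring on the median gave 1.09 with a call as higher in lung (limma, adjusted p = 3.46e-09). In that setting Cd3e was not called (limma, adjusted p = 0.0790), so that the number of calls between lung and liver stayed at 7 with a different set of genes.

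In the 5 D0 mice Cd79b averaged 0.59 ± 0.24 (SD) in lung and -3.29 ± 0.22 in liver, Ms4a1 0.13 ± 0.39 and -2.69 ± 0.29, and Lck -0.71 ± 0.21 and -2.79 ± 0.20. Forestomach and liver are not ranked for these 3 genes, because 3, 4 and 2 of their 5 D0 forestomach values were at background. The 2 D0 forestomachs that measured Cd79b, those of mice 2 and 5, had ratios of -3.70 and -4.77, below every D0 liver. Their Cy5 signals were 221 and 114, against 99 to 163 in the D0 livers, so ratio and signal give no common order. Cd3e averaged -1.06 ± 0.14 in lung, -0.28 ± 0.16 in liver and -1.12 ± 0.97 in forestomach.

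In lung against liver 7 of the 9 genes were called, 5 higher and 2 lower, where 46.4% of all 32854 probes tested were called. Cd79a, among the 5 higher, and Cd8a, which was not called, entered that comparison only through their lung signal. This count is therefore not read against that share. In lung against forestomach 5 of 9 were called, all higher in lung, where 37.5% of all probes were called. Cd79a, Ms4a1 and Cd8a entered this comparison only through their lung signal, so the count is not read against that share. The 5 were Cd79b (3.37 ± 0.43, adjusted p = 4.02e-09), Ms4a1 (2.28 ± 0.46, adjusted p = 4.02e-05), Lck (1.51 ± 0.35, adjusted p = 0.000299), Cd79a and Cd3g (0.90 ± 0.33, adjusted p = 0.0178), all by limma. Of the 5 D0 forestomachs, 2 were well above background for Cd79b, 1 for Ms4a1, 3 for Lck, 0 for Cd79a and 2 for Cd3g. These differences are set partly by background values, so their direction is read and their sizes are not. Cd22 (0.21), Cd3e (0.06) and Cd4 (-0.01) were not called. The calls of these 3 depend on the scaling, because centring each array on its median without loess gave 1.05, 2.25 and 1.75 and called all 3 (limma, adjusted p = 0.000847, 2.88e-05 and 0.00279). The sizes of the called genes moved as well. Over the alternatives Cd79b ran from 2.88 to 5.39, Ms4a1 from 1.81 to 4.07, Lck from 1.12 to 3.64 and Cd3g from 0.57 to 2.45. Cd3g was no longer called without mouse 2 (0.58, limma adjusted p = 0.180) or without mouse 5 (0.57, limma adjusted p = 0.182), the 2 D0 mice whose forestomach arrays lay on slide 3. In forestomach against liver 7 genes were tested and 2 were called, both lower in forestomach, where 40.9% of all probes were called. By limma they were Cd4 (-2.40 ± 0.13, adjusted p = 4.91e-22) and Cd3e (-0.84 ± 0.31, adjusted p = 0.0162), and Cd3e lost its call without mouse 2 (-0.53) or mouse 5 (-0.57).

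The next question was whether chrysene changed these transcripts in the lung. The 4 B cell genes and 5 T cell genes gave 0 calls at D1, D2 and D3 where a call needs both a fold change of 1.5 or more and p no higher than 0.05 after Benjamini-Hochberg adjustment (limma). Of all 31496 probes tested in lung, 0% were called at D1, 0% at D2 and 0.127% at D3 (40 probes). At an unadjusted p of at most 0.05, 0 of the 9 passed at D1 and at D2 and 3 at D3, where 5.88%, 6.12% and 16.1% of all probes did. The 3 were Cd79a, Cd79b and Ms4a1, all higher at D3, where 6.05% of all probes passed as higher and 10.1% as lower. The same 3 passed in a linear trend over the dose steps, again with 0 of 9 called, where 0.168% of all probes were called and 17.3% passed the unadjusted limit.

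The group means show where the values stood before D3. Cd79a averaged 0.92 ± 0.28 (SD, n = 5) at D0, 1.12 ± 0.18 at D1, 0.98 ± 0.32 (n = 3) at D2 and 1.43 ± 0.52 at D3. Cd79b averaged 0.59 ± 0.24, 0.64 ± 0.14, 0.57 ± 0.49 and 1.11 ± 0.44, and Ms4a1 0.13 ± 0.39, 0.29 ± 0.23, 0.081 ± 0.39 and 0.75 ± 0.59. The means of D1 and D2 lay within 1 SD of D0 for all 3.

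Cd79a, the first of the receptor pair, had ratios of 0.89, 1.04, 0.54, 1.31 and 0.83 at D0 and of 1.29, 1.16, 1.28, 2.36 and 1.08 at D3. The groups overlap, and the highest value by far is that of mouse 19. The fitted difference was 0.51 ± 0.21, or 1.43-fold (limma, unadjusted p = 0.0232, adjusted p = 0.246).

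Cd79b, its partner, ran from 0.20 to 0.79 in the 5 D0 lungs and had 1.19, 0.78, 0.95, 1.84 and 0.81 at D3. In 4 of the 5 D3 mice it lay above every D0 mouse. The difference was 0.52 ± 0.19, or 1.43-fold (limma, unadjusted p = 0.0159, adjusted p = 0.224). Ms4a1 had 0.44, 0.47, -0.46, 0.25 and -0.05 at D0 and 0.71, 0.32, 0.59, 1.77 and 0.35 at D3, a difference of 0.62 ± 0.24 or 1.53-fold (limma, unadjusted p = 0.0217, adjusted p = 0.242). D0 mouse 3 was the lowest D0 lung for all 3 genes, and without it the differences were 0.42, 0.42 and 0.47 and none passed the unadjusted limit. From Cy5 alone the value of Cd79a was 0.20. Cd22, the remaining B cell gene, had 0.11 to 0.38 at D0 and 0.06 to 0.58 at D3, with a difference of 0.02 ± 0.10.

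**Figure D2:**
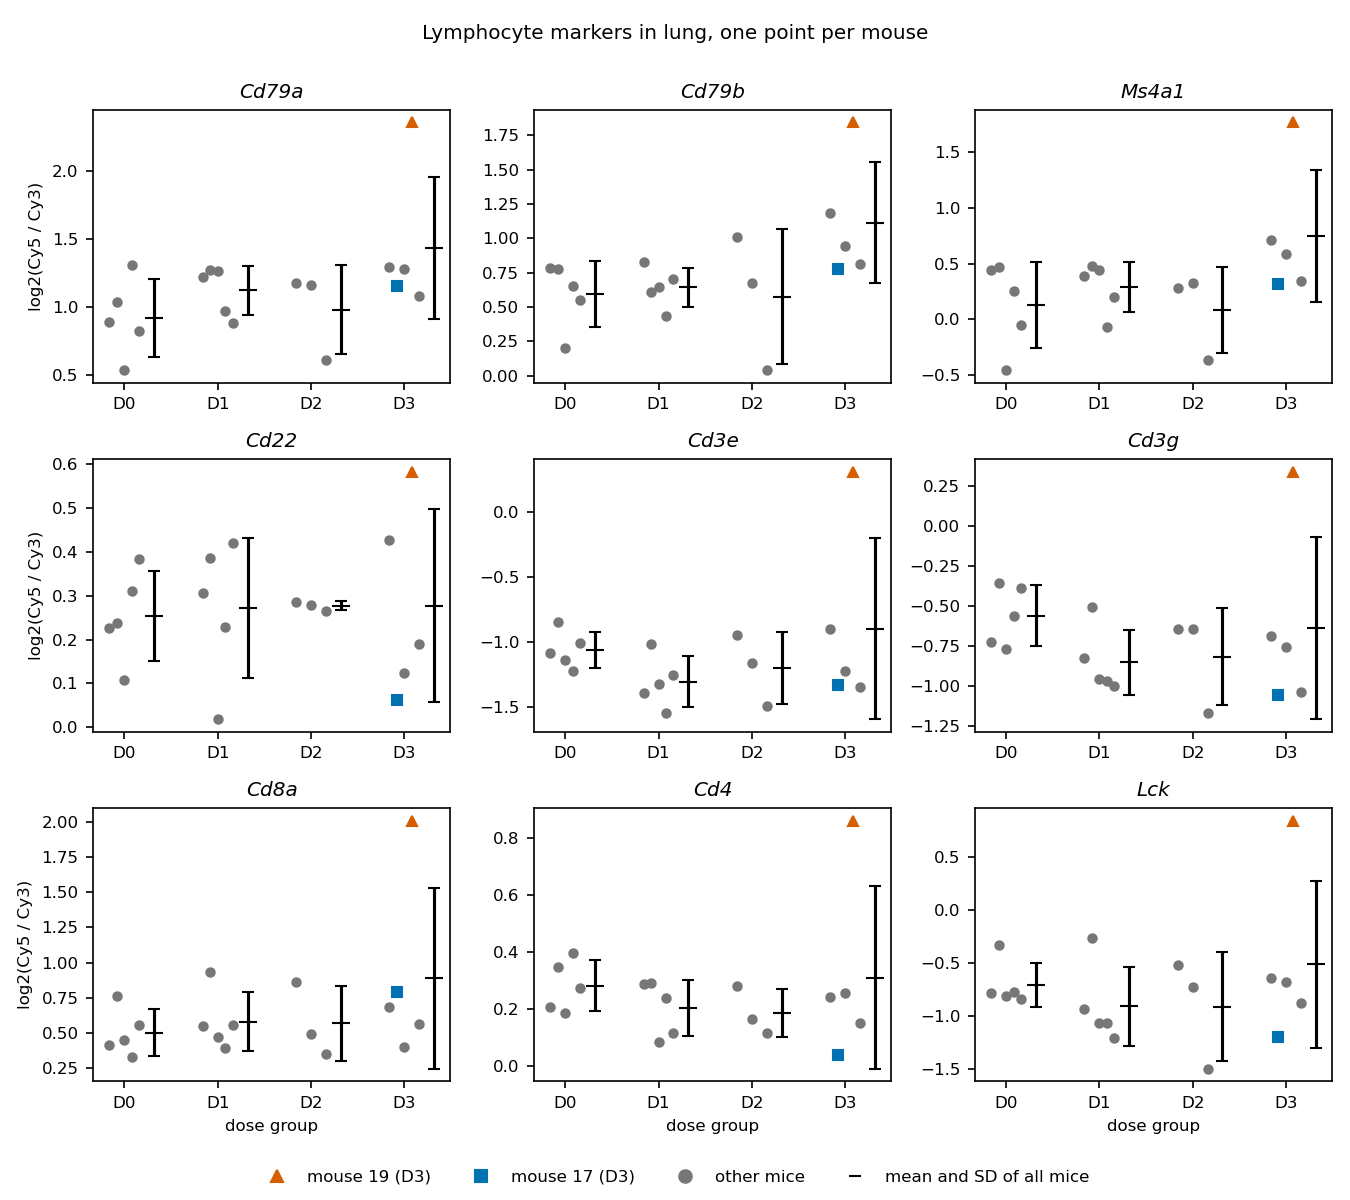
Log2 ratio of Cy5 over Cy3 (y axis) of the 9 genes in the 18 lungs by dose group (x axis), 1 point per mouse, with the mean and SD of each group beside its points. Mouse 19 (triangle) is the highest lung of all for all 9 genes. Mouse 17 (square) lies within the range of the others except for Cd4, where it is the lowest.

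The T cell genes at D3 lay on both sides of D0. Their fitted differences were 0.16 ± 0.24 for Cd3e, -0.08 ± 0.21 for Cd3g, 0.39 ± 0.22 for Cd8a, 0.03 ± 0.11 for Cd4 and 0.20 ± 0.30 for Lck. None passed the unadjusted limit, the smallest p being 0.101 for Cd8a (limma). Over all 9 genes the D3 difference was positive for 8 with a median of 0.20, beside a median of -0.03 and 42.5% positive over all probes tested. Across the alternatives the count of positive genes ran from 2 to 9 and their median from -0.28 to 0.40. At D1 the 9 differences lay between -0.29 and 0.20 and at D2 between -0.26 and 0.07.

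The lung of mouse 19 was the highest of all 18 lungs for each of the 9 genes. For how many of all probes this lung was the highest was not computed. Cd3e was 0.31 in this lung and -1.55 to -0.85 in the other 17. Cd3g was 0.34, against -1.17 to -0.35, and Lck was 0.84, against -1.49 to -0.26. Cd8a was 2.01, against 0.33 to 0.94, and Cd4 was 0.86, against 0.04 to 0.39. Against the mean of the other 4 D3 lungs the excess ran from 0.38 for Cd22 to 1.69 for Lck, with a median of 1.22, which is 1.30-fold to 3.22-fold. The Cy5 signal of Cd22 differed by slide. Mouse 19 read 177, under the 210 that the other 4 D3 lungs averaged, but above the 108 to 150.5 of the other lungs on its own slide. For Cd3e the Cy5 signal was 2680 against 996.

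Most genes of the B and T cell companion lists, chosen with the pattern of mouse 19 known, were also highest in that lung. Of 14 further B cell genes with a probe, 13 were highest in mouse 19, among them Cr2, Cxcr5, Spib and Pax5. Cxcr5, the chemokine receptor that leads B cells into follicles, was 3.92 there and at most 2.64 in the lungs other than those of mice 17 and 19. Of 16 further T cell genes, 14 were highest there, including Cd3d, Cd5, Cd6, Zap70 and Ccr7. Among the other lists the count highest in that lung ran from 0 of 7 NK and cytotoxic genes to 7 of 7 keratinocyte genes. The share of all probes highest in that lung was not computed, so these counts are not read against a background. Ccr7, which guides naive T cells into lymph nodes, was 4.45 there, against at most 3.67. The mean of the B cell list was 1.19 above its D0 mean in mouse 19 and between -0.41 and 0.30 in the other 17 lungs. The mean of the T cell list was 1.00 above its D0 mean and between -0.39 and 0.16 in the others. In the same lung the 7 NK and cytotoxic genes averaged 0.05 and the 6 plasma cell genes 0.02 above D0, and the 6 macrophage and monocyte genes -0.24, the 5 neutrophil genes -0.08, the 5 alveolar type 2 genes -0.19, the 6 hepatocyte genes 0.67 and the 8 glandular stomach genes 0.0076.

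Markers of other tissues were high in the same lung. The 7 skeletal muscle genes averaged 5.77 above D0 in mouse 19 and 5.63 in mouse 17, against -0.22 to 0.82 in the other 16 lungs. The 7 keratinocyte genes averaged 5.48 and 4.92, against -0.10 to 0.23. All 7 of both lists were highest in 1 of these 2 lungs. In mouse 17 Cd79a was 1.16, Cd3e -1.33 and Lck -1.19, all inside the range of the other lungs, and Cd4 was 0.04, the lowest of the 18. Its 6 plasma cell genes averaged 0.52 above D0, against -0.11 to 0.14 in the 16 lungs other than those of mice 17 and 19. The 5 thymocyte genes were highest in mouse 17, 0.88 above D0, and 0.15 above in mouse 19. Within that list Dntt, the template-independent polymerase of developing lymphocytes, was 0.11 in mouse 17, -1.34 in mouse 19 and at most -1.33 in the other lungs, and Rag2 and Ptcra were at background on all 18 arrays. The part of other tissue in the lymphocyte values of mouse 19 was not tested.

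**Figure D3:**
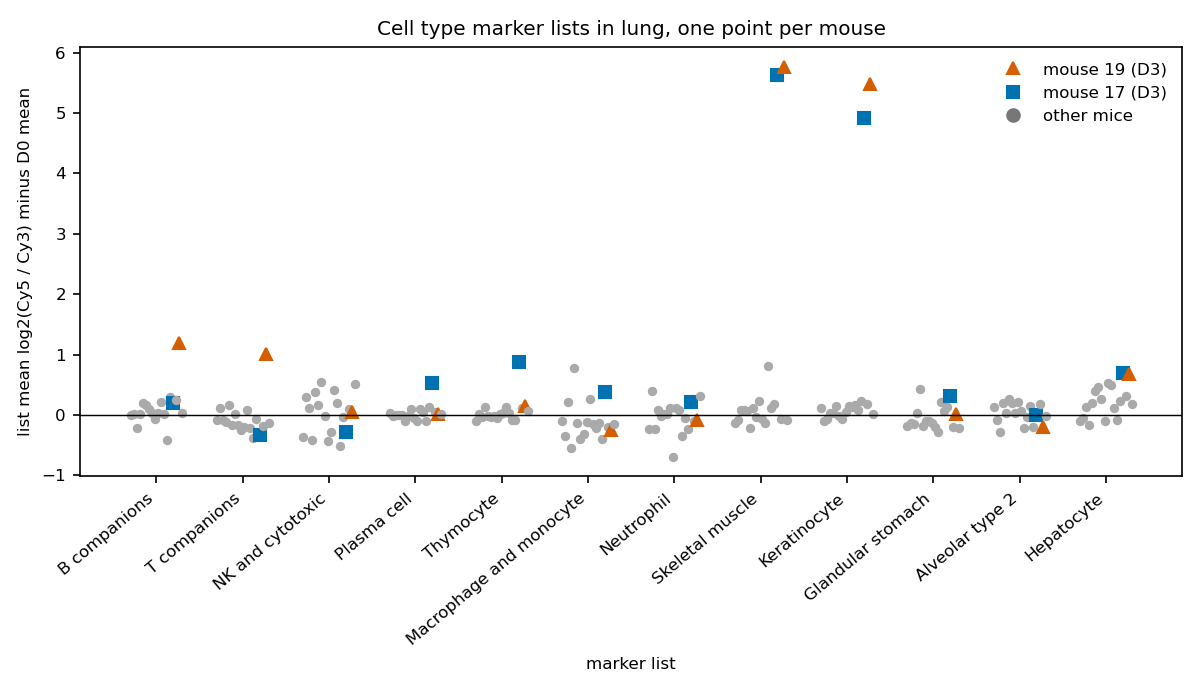
Mean log2 ratio of each marker list (x axis) in each lung, less the mean of the 5 D0 lungs (y axis), 1 point per mouse. Mouse 19 (triangle) stands apart in the B cell (1.19), T cell (1.00), skeletal muscle (5.77) and keratinocyte (5.48) lists, and mouse 17 (square) in skeletal muscle (5.63), keratinocyte (4.92), thymocyte (0.88) and plasma cell (0.52) lists.

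Because mouse 19 was the highest lung for all 9 genes, leaving it out had to lower each D3 difference, and only the sizes are read. The differences were then 0.28 ± 0.15 for Cd79a, 0.34 ± 0.16 for Cd79b and 0.36 ± 0.19 for Ms4a1, with unadjusted p of 0.0690, 0.0543 and 0.0708 (limma). Of the remaining 4 D3 values of Cd79b, 0.78 to 1.19, 3 lay above every D0 lung. Cd3g was -0.32 ± 0.14 (limma, unadjusted p = 0.0292, adjusted p = 0.404), and Cd3e (-0.14), Lck (-0.14), Cd4 (-0.11) and Cd22 (-0.05) also lay below 0, so that 4 of 9 differences stayed positive. In this reduced fit 1 probe of 31323 was called and 10.8% passed the unadjusted limit, 3.74% higher and 7.04% lower. With mice 17 and 19 both left out, the values of Cd79a, Cd79b and Ms4a1 were 0.30, 0.39 and 0.42. Adding the mean of the skeletal muscle genes to the model gave 0.29, 0.40 and 0.42.

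**Figure D4:**
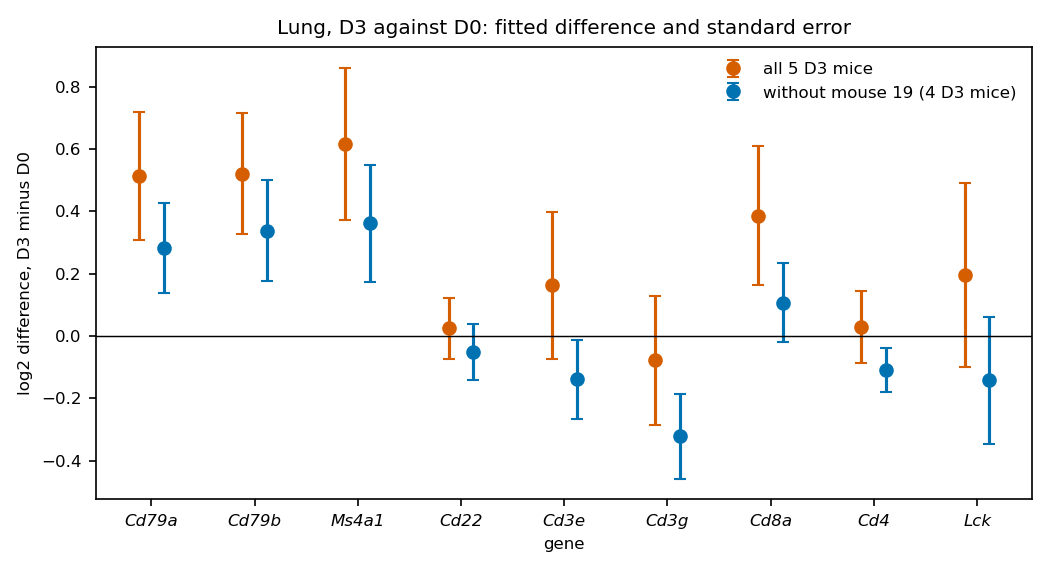
Fitted log2 difference between D3 and D0 in lung (y axis) with its standard error for each gene (x axis), with all 5 D3 mice and without mouse 19. Leaving out mouse 19, the highest lung for every gene, has to lower each value, here from 0.51 to 0.28 for Cd79a and from 0.20 to -0.14 for Lck.

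Among the companions, 7 of 14 B cell genes passed the unadjusted limit at D3, all higher, with a median difference of 0.39, and 0 were called. Over all probes 6.05% passed as higher. The nearest was Spib, a transcription factor of B cells, at 1.05 ± 0.23 (limma, adjusted p = 0.0541). Others were Pou2af1 (0.67), Cr2 (0.60), Cxcr5 (0.56) and Fcrla (0.54). Of 16 T cell companions 0 passed, with a median of 0.11. Without mouse 19, 2 of 14 B cell companions passed, both higher, beside 3.74% of all probes, with a median of 0.19 and 11 of 14 positive. Of the 16 T cell companions 4 then passed, all lower, beside 7.04% of all probes, with a median of -0.17 and 1 of 16 positive. These lists were chosen with the pattern of mouse 19 known.

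Within slides, D3 minus D0 of Cd79a was 0.19 on slide 1, 0.51 on slide 2 and 0.50 on slide 3. For Cd79b it was -0.01, 0.75 and 0.63, and for Ms4a1 -0.13, 0.93 and 0.78. Slide 1 held 1 D3 lung, that of mouse 17, and slide 2 held mouse 19 and a single D0 lung. With slide as a block the values were 0.49, 0.53 and 0.62. With the array's column as a covariate Cd79a was -0.13, Cd79b -0.17 and Ms4a1 0.17, and all 5 D0 lungs lay in column 1.

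In liver 7 genes could be tested, all but Cd79a and Cd8a, and 0 were called at any dose or in the trend. Of all 24769 probes tested, 0% were called at D1, 0% at D2, 0% at D3 and 0% in the trend, and 3.61%, 3.78%, 4.78% and 5.41% passed the unadjusted limit. The one gene to pass that limit was Cd22, whose probe was brighter in the reference channel on liver arrays than on lung arrays. It had 0.41, 0.82, 0.42, 0.13 and 0.41 at D0, 0.67, 0.61, 0.70, 0.60 and 0.84 at D1, 0.37, 0.79, 0.47 and 0.30 at D2 and 0.53, 0.87, 0.65, 0.75 and 0.64 at D3. Mouse 2 lay within the range of the dosed mice and the other 4 D0 mice below every D1 and D3 mouse. The difference was 0.25 ± 0.11 at D1 and 0.25 ± 0.11 at D3, or 1.19-fold (limma, unadjusted p = 0.0371 and 0.0340, adjusted p = 1.00 at both doses). At D2 it was 0.04 ± 0.12. Within slides D3 minus D0 was -0.12, 0.42 and 0.24.

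Cd4 in liver was 2.58 to 2.85 at D0 and 2.37 to 2.60 at D3, a difference of -0.16 ± 0.08 (limma, unadjusted p = 0.0678). The other 5 liver genes differed from D0 at D3 by -0.16 for Cd3e to 0.23 for Ms4a1. In the liver of mouse 19 Cd79b was -3.23 and Ms4a1 -2.36, both inside the range of the other livers.

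In forestomach 6 genes could be tested, all but Cd79a, Cd8a and Ms4a1, and 0 were called at any dose or in the trend. Of all 27527 probes tested, 0% were called at D1, 0% at D2, 0.00727% at D3 and 0.04% in the trend. At the unadjusted limit 0 of 6 passed in each of the 4 comparisons, where 4.17%, 7.54%, 9.24% and 9.18% of all probes did. Several forestomach ratios lay in separate ranges by slide. Cd79b lay between -3.16 and -1.28 on slides 1 and 2 and between -4.91 and -3.70 on slide 3. Cd3e lay between -1.40 and -0.28 on slides 1 and 2 and between -2.45 and -1.52 on slide 3, and Lck between -2.52 and -1.14 and between -3.64 and -2.98. Of these, Cd3e was well above background on every array. Cd79b and Cd3g were at background on all 12 arrays of slides 1 and 2 and above it on 6 and 7 of the 7 of slide 3, and Lck was above it on 5 of 5, 1 of 7 and 7 of 7 arrays of slides 1 to 3.

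The lower ratios of slide 3 went with higher Cy5 signal. The Cy5 of Cd3e averaged 141 on slide 1, 104 on slide 2 and 380 on slide 3, and that of Lck 93.4, 80.3 and 221, while the Cy3 of Cd3e was 1965, 1923 and 2464. The 95th percentile of Cy5 over all probes was 270 to 1134 on slides 1 and 2 and 2307 to 6270 on slide 3. The authors' ratios are made without background subtraction. Cd22 and Cd4 did not show the gap in their ratios, with slide means of 0.07, -0.06 and 0.07 for Cd22 and 0.44, 0.21 and 0.26 for Cd4.

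**Figure D5:**
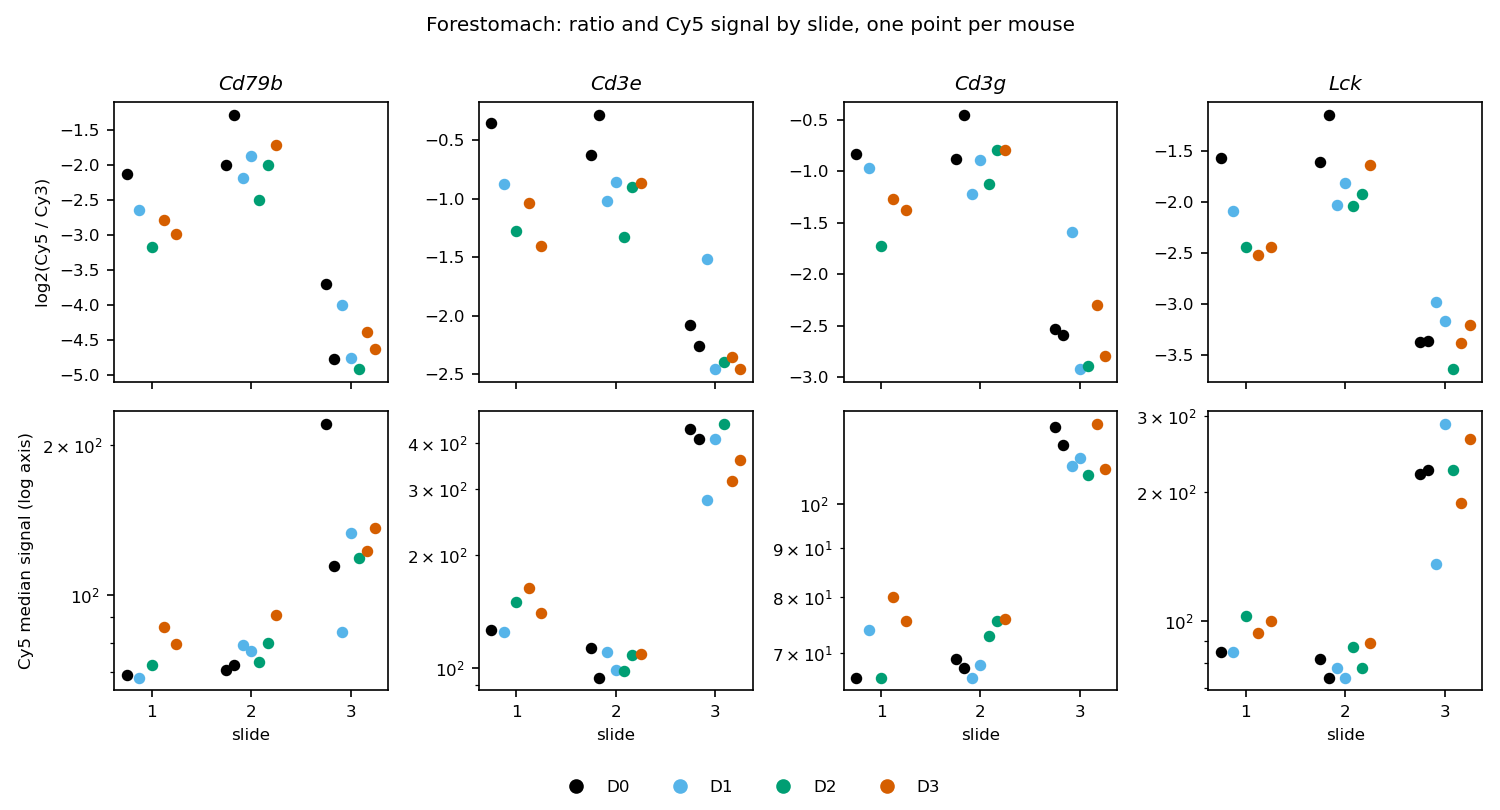
Log2 ratio (upper row) and Cy5 median signal on a log axis (lower row) of Cd79b, Cd3e, Cd3g and Lck in the 19 forestomachs by slide (x axis), 1 point per mouse, coloured by dose group. The mean ratio of slide 3 lies below those of slides 1 and 2 for each gene and its mean Cy5 above, with dose groups mixed on every slide. Cd79b and Cd3g are at background on slides 1 and 2.

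With all slides, the forestomach differences at D3 were -0.52 ± 0.75 for Cd79b, -0.50 ± 0.46 for Cd3e, -0.43 ± 0.48 for Lck and -0.25 ± 0.53 for Cd3g, and 0.03 and 0.01 for Cd4 and Cd22. The standard errors of the first 4 ran from 0.46 to 0.75, against 0.19 to 0.30 for the same genes in lung. The mean of 8 glandular stomach genes varied between forestomachs from -3.68 to 2.81 around its D0 mean, and its part in the lymphocyte values was not tested.

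Whether D3 acted differently on these genes in different tissues was tested directly in 1 fit of all 56 arrays, and 0 of the members were called for any pair. For lung against liver 0% of all probes were called and 9.79% passed the unadjusted limit, for lung against forestomach 0.272% and 9.81%, and for forestomach against liver 0% and 8.5%. None of the members passed the unadjusted limit. Cd79a and Cd8a had no measured level in liver or forestomach, and Ms4a1 was measured on 1 forestomach array, so these differences were not read. Among the 7 genes measured in lung and liver the smallest p was that of Cd22, whose D3 effect was -0.23 ± 0.14 in lung minus liver (limma, unadjusted p = 0.107, adjusted p = 0.638). For Cd79b the difference between lung and liver was 0.41 ± 0.44 and for Ms4a1 0.38 ± 0.47. Between lung and forestomach the smallest p among the genes tested in both was that of Cd79b, at 1.04 ± 0.61 (limma, unadjusted p = 0.0944, adjusted p = 0.617), followed by Cd3e at 0.66 ± 0.44 (limma, unadjusted p = 0.135, adjusted p = 0.678), with Cd79b at background on forestomach slides 1 and 2.

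Whether the markers vary together from mouse to mouse was asked in 15 relations, on deviations from the dose group means. In lung Cd79a and Cd79b were related over 18 mice with r = 0.852 and rho = 0.771 (permutation p = 2e-05 and 0.00034, adjusted 1e-04 and 0.0017). Cd3e and Cd3g had r = 0.938 and rho = 0.804 (permutation p = 1e-05, the smallest the permutations can give, and 0.00011, adjusted 7.5e-05 and 0.000825). The B cell gene Cd79a and the T cell gene Cd3e had r = 0.816 and rho = 0.631 (permutation p = 4e-04 and 0.00616, adjusted 0.0015 and 0.0231). Leaving out the 2 mice farthest from the median, mouse 19 with mouse 4 or mouse 20, gave r of 0.813, 0.822 and 0.723, and removing slide means gave 0.926, 0.945 and 0.870. Without mouse 19 alone r was 0.723 for Cd79a with Cd79b, 0.802 for Cd3e with Cd3g and 0.438 for Cd79a with Cd3e, which for the last is well under the value without mice 4 and 19. Over all 36 pairs of the 9 genes r in lung ran from 0.518 to 0.954, and from 0.121 to 0.877 without mouse 19, as a description.

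In liver, where Cd3g was well above background on 13 of 19 arrays, Cd3e and Cd3g had r = 0.296 and rho = 0.0561 (permutation p = 0.218 and 0.822, adjusted 0.468 and 0.849). The relations of Cd79a outside lung are not read, because it was at background on every liver and forestomach array. In forestomach no pooled value is read because of the slides. On slides 1 and 2 Cd3g was at background on every array and its relation is not read. Over the 7 arrays of slide 3 Cd3e and Cd3g had r = 0.909 and rho = 0.786, which did not pass after adjustment over 6 tests (permutation p = 0.0239 and 0.0482, adjusted 0.0717 and 0.145), and r was 0.605 without the 2 farthest arrays. Between tissues of the same mice 1 relation could be read, that of Cd3e in lung and liver, with r = 0.102 and rho = 0.296 (permutation p = 0.684 and 0.230, adjusted 0.790 and 0.494), and without the 2 farthest mice r was 0.217.

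The genes whose pattern was most like Cd79a over all 56 arrays, in deviations from the means of each tissue and dose, were Cr2 (r = 0.734), Madcam1 (0.695), Cdk12 (0.615), Cxcr3 (0.545) and Ccl19 (0.538), out of 11801 genes. Without the lung of mouse 19 these were 0.605, 0.516, 0.338, 0.295 and 0.20. Cd79a was at background on every liver and forestomach array, so only the lung arrays carry a measured pattern, and within them r was 0.926, 0.770, 0.769, 0.743 and 0.733. Those most like Cd3e were Acap1 (0.951), Cd6 (0.948), Ptprcap (0.943), Sit1 (0.934) and Pou2af1 (0.927), and 0.945, 0.941, 0.935, 0.926 and 0.932 without it. All 56 arrays share the reference RNA, and the forestomach slides enter the values of Cd3e.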

How the data were processed

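Expression in lung, liver and forestomach was measured on 2-colour arrays, 1 per mouse and tissue. The deposited scanner files hold spot and background median intensity for both channels, extracted with Feature Extraction 10.7.3.1, not background-subtracted. The authors also deposited log2 ratios (Cy5 over Cy3), 1 for each probe on each array, after LOWESS within each array from median signals without background subtraction. These deposited log2 ratios are the main values here. They correlated at 0.977 to 0.998 per array with loess ratios computed from the scanner files, with slopes of 0.952 to 0.996 and column medians of -0.05 to -0.02, so scale and direction are known. The 3671 control spots were left out and 59305 spots averaged to 55681 probes. The scanner files give accessions, and 26413 probes (47.4%) were named through RefSeq transcripts for GRCm38.p6. Flags for spots well above background are 0 or 1 per the file headers.

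Probes entered a tissue's test when at least 3 of its arrays had Cy5 well above background. Each dose was compared with D0 within a tissue by limma 3.58.1 (R 4.3.3; lmFit, eBayes, two-sided), where the study's methods name MAANOVA. P-values were adjusted by Benjamini-Hochberg over all probes tested. A call needed an adjusted p of at most 0.05 and a fold change of at least 1.5. Tissues were compared in 1 fit of all 56 arrays with array weights per tissue. Each mouse gave up to 3 arrays, so that tissues were paired by animal, and the fit with the mouse as a random block gave a correlation of 0.0306. Relations used 100000 permutations. P-values measure the spread between mice. The number of arrays limits the precision. The fits were tested on simulated data with 200 changed probes. The fit of lung D3 recovered 98% of changes of 1 on the log2 scale, that of liver 96% and that of forestomach 69%. The simulated noise was independent between probes and arrays, without slide effects, a deviating lung or the tie of dose to column. These rates therefore need not hold for the 9 genes. All 9 genes were reported. The genes, lists and tests were chosen with earlier results of these data known. The lists held companions of B cells (14 of 16 with a probe) and T cells (16 of 16), and markers of NK and cytotoxic cells, plasma cells, thymocytes, macrophages and monocytes, neutrophils, skeletal muscle, keratinocytes, glandular stomach, alveolar type 2 cells and hepatocytes. Alternatives changed the normalization, background correction, channel, filter, probe rule, slide, column, covariates, dose scale, weights and mice.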

Additional observations from a re-analysis of the deposited data

Results flagged for a closer look

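In groups of 4 or 5 mice, the highest or lowest sample lay far from the others in 16 cases over 99 groups (16.2%), where chance gives about 1 in 20 groups. The 9 genes share their arrays, so the cases are not independent. The lung of D3 mouse 19 gave 7 of them, for Cd79a (2.36, nearest D3 mouse 1.29), Ms4a1 (1.77), Cd3e (0.31), Cd3g (0.34), Cd8a (2.01), Cd4 (0.86) and Lck (0.84). The other lung values were Lck in D0 mouse 2 (-0.33) and D1 mouse 7 (-0.26). In liver they were Cd3e in D0 mouse 2 (0.0025, nearest -0.32), Cd79a in D0 mouse 3 (-0.27), Cd3g (-1.99) and Lck (-3.12) in D1 mouse 10, and Cd4 in D3 mouse 16 (2.37). In forestomach they were Cd22 in D0 mouse 2 (0.52) and Cd4 in D0 mouse 4 (-0.19). Cd3g at D2 was above the D0 mean in all 4 livers (0.25) and below it in all 3 lungs (-0.26), a gap of 0.50 that was not tested.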

How the results depend on the processing

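Across all alternatives, 0 genes were called at any dose or in any trend, the counts being the same with loess values from the scanner files, median centring, normexp, Cy5 alone, other filters, all probes of a gene, slide, column, covariates and each mouse left out. With the replicate block (the mouse as a random block) 7, 5 and 2 genes were called between tissues, as without it, and no call changed. The count for lung against liver was 7, also with median centring but with Cd22 in place of Cd3e, and ranged from 7 to 8 without 1 mouse. The count for lung against forestomach was 5 and became 8 with median centring, and it ranged from 4 to 5 without 1 mouse. The count for forestomach against liver was 2 and ranged from 1 to 2 without 1 mouse. In that comparison Lck, not called in the main fit, ran from 0.35 to 0.89 without 1 mouse. Its smallest adjusted p over the alternatives was 0.0436 (limma). With the array column as a covariate, Cd79a (-0.13) and Cd79b (-0.17) at D3 in lung changed sign. Between tissues, loess values turned Cd4 in lung against forestomach to 0.090. Median centring gave Cd22 1.09 and Cd3e 0.44 in lung against liver, Cd4 1.75 in lung against forestomach, and Cd79b -0.46, Ms4a1 -0.095, Cd22 0.037, Cd3g -0.18 and Lck -0.40 in forestomach against liver. Without 1 mouse, lung against forestomach ran from -0.24 to 0.30 for Cd3e and from -0.15 to 0.072 for Cd4. The causes were not tested. Lung D3 differences ran from 0.28 to 0.61 for Cd79a, 0.34 to 0.61 for Cd79b and 0.36 to 0.72 for Ms4a1 without 1 mouse, the low ends without mouse 19. The runs on forestomach slides 1 and 2 alone and on slide 3 alone were chosen after seeing the data, and called 0 genes. Of 15 relations 4 passed, and 4 passed with loess values, with slide means removed and without the 2 farthest mice, including the pooled forestomach pair that is not read here. No p was computed for the relations without mouse 19 alone. Signal over background limits forestomach, where 6 genes were tested, and liver, where 7 were.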
